A study of Mus musculus with 10 samples.

Results

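Of the 55487 genes in the table, 10 genes are described here because they hold the mouse oocyte in meiotic arrest or carry it through maturation: Nppc, Npr2, Gpr3, Pde3a, Wee2, Mos, Aurkc, Cpeb1, Btg4 and Cnot6l. They were selected by name and function, with earlier results of these data known. All 10 passed the filter on low counts that left 18956 genes for testing. RNA was sequenced from 10 whole ovaries of C57BL/6J mice in 3 groups. Control was 4 ovaries from mice 8 weeks old, Aged was 3 ovaries from mice 11 months old, and Aged+CF was 3 ovaries from mice of the same 11 months that had received cell-free fat extract (CEFFE), the liquid protein fraction left when cells and debris are removed from emulsified fat tissue. CEFFE was given through the tail vein at 200 µL of a 3 µg/µL solution every 2 days for 2 weeks, Control and Aged mice received saline on the same schedule, and mice of all 3 groups received 10 IU of PMSG, the gonadotropin of pregnant mare serum, 48 h before the ovaries were collected. No genetic change was made in any group, and a whole ovary holds oocytes together with all its somatic cells.

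A fully grown oocyte waits in prophase of the first meiotic division because its cyclic AMP stays high. The receptor Gpr3 drives cyclic AMP synthesis in the oocyte, while the phosphodiesterase Pde3a breaks cyclic AMP down and is inhibited by cyclic GMP, which the granulosa cells around the oocyte make when the peptide encoded by Nppc binds the guanylyl cyclase receptor Npr2. Luteinizing hormone ends this supply, Cdk1 is released from the inhibitory kinase Wee2, and the oocyte resumes meiosis while Mos and Aurkc act on the meiotic divisions. Transcription is by then silent, so the RNA-binding protein Cpeb1 and the deadenylation machinery of Btg4 and Cnot6l set which stored mRNAs are translated and which are degraded.

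Each ovary had between 15761789 and 21318254 counts. The oocyte markers (24 genes such as Padi6, Gdf9 and Nlrp14) summed to 698 to 929 CPM (counts per library size after TMM scaling) in the Control ovaries, to 42.2 to 236 CPM in the Aged ovaries and to 278 to 423 CPM after CEFFE. Granulosa markers were detected in every ovary, at 3205 to 8558 CPM in sum. Between Aged and Control, 6 of 8 theca and luteal markers, 4 of 8 endothelial markers and 5 of 9 immune markers tested were higher at an adjusted p, and none of 8 smooth muscle and 6 oviduct markers was called. Aged replicate 34 stood apart from the other Aged ovaries. It had 42.2 CPM of oocyte markers against 236 and 212 in Aged replicates 31 and 33, and 495 CPM of immune markers against 203 and 163. Its oviduct markers summed to 362 CPM, a level that among the other 9 ovaries only Control replicate 33 reached, with 391. The fold changes of the 10 genes are therefore given with and without it, while the fit with an oocyte score and the distances between patterns used all 10 ovaries. Nothing in the labels says more about how the replicates were taken than that they are separate samples, so p-values measure the spread between these ovaries.

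The levels of the 10 genes were compared with each other as FPKM, a value per length of transcript. Averaged over the 10 ovaries, Nppc at 20.1 FPKM and Npr2 at 17.5 FPKM were the most abundant, followed by Cnot6l at 5.20, Mos at 3.75, Cpeb1 at 3.12 and Pde3a at 2.61 FPKM. Btg4 and Wee2 followed at 1.40 and 1.24 FPKM, and Aurkc and Gpr3 were the least abundant at 0.542 and 0.280 FPKM. Gpr3 rested on 5 to 43 counts an ovary and Aurkc on 0 to 49, so counting error weighs most on these genes. Npr2, at 1223 to 3269 counts an ovary, and Cnot6l, at 944 to 1987, were measured with the most reads.

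**Figure D1:**
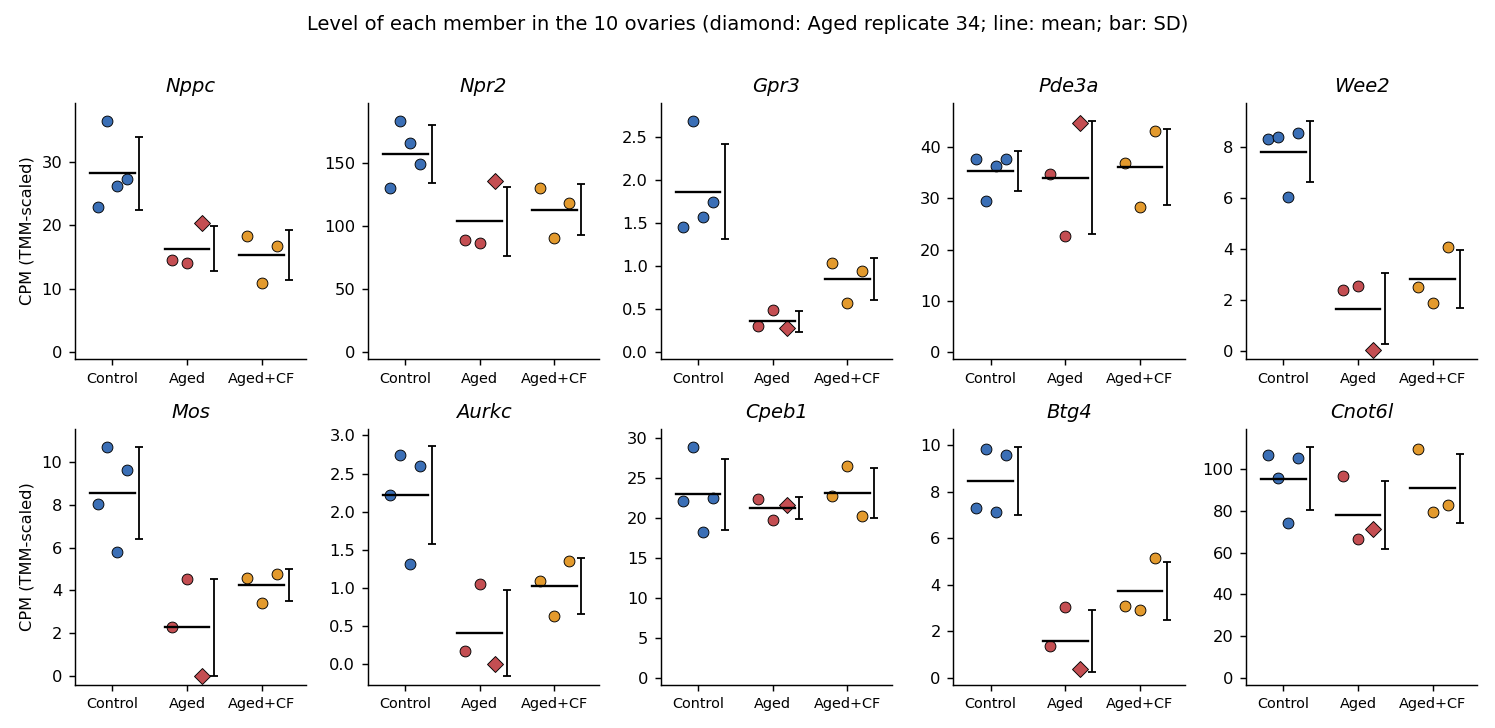
CPM of each of the 10 genes on a linear axis, with 1 point for each ovary, a line at the group mean and a bar of 1 SD. For Nppc, Gpr3, Wee2, Mos, Aurkc and Btg4 every Aged ovary lies below every Control ovary, and Aged replicate 34 (diamond) has 0 CPM of Mos and Aurkc.

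In the GRCm38 annotation, Gpr3 lies on chr4:133209340-133212536 (minus strand), Nppc on chr1:86666291-86670571 (minus strand), Npr2 on chr4:43631935-43651244, Pde3a on chr6:141249269-141507448, Wee2 on chr6:40439088-40466813 and Mos on chr4:3870657-3872105 (minus strand). Aurkc lies on chr7:6995300-7003091, Cpeb1 on chr7:81347026-81455465 (minus strand), Btg4 on chr9:51060901-51119875 and Cnot6l on chr5:96070333-96164171 (minus strand). All are annotated as protein-coding. Gpr3 shares bases with Cd164l2 on the opposite strand, Btg4 with Layn and 4833427G06Rik, Npr2 with the antisense gene Gm12473, Pde3a with the antisense gene Gm28523 and Cpeb1 with a pseudogene, and whether counting used strand is not given in the sources used here, so reads in the shared stretches are uncertain. Cd164l2 had 11 to 161 counts an ovary, in the range of Gpr3 itself or above it.

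Promoter windows of 300 bases, from 250 bases before to 50 bases after the RefSeq start site in GRCm38.p6, were on hand for 8 of the 10 genes. The 5 printed belong to genes whose Aged ovaries all lay below Control, and they show how unlike the promoters of these genes are. The letters CANNTG on either strand, the E-box read by basic helix-loop-helix factors, are in capitals. The windows are Btg4 at chr9:51115751-51116050 (plus strand), Wee2 at chr6:40442613-40442912 (plus strand), Aurkc at chr7:6995135-6995434 (plus strand), Gpr3 at chr4:133212487-133212786 (minus strand) and Nppc at chr1:86670524-86670823 (minus strand).
Btg4: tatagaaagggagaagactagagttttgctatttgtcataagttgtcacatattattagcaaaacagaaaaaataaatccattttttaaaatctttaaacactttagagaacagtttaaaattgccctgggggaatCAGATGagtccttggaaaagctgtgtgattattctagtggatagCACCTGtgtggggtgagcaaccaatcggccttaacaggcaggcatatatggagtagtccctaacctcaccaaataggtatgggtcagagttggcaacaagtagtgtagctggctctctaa
Wee2: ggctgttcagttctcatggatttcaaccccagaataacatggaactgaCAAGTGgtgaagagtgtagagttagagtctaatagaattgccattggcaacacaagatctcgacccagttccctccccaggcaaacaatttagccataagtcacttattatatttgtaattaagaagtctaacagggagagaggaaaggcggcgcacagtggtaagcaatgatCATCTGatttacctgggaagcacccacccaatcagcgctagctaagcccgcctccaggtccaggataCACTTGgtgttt
Aurkc: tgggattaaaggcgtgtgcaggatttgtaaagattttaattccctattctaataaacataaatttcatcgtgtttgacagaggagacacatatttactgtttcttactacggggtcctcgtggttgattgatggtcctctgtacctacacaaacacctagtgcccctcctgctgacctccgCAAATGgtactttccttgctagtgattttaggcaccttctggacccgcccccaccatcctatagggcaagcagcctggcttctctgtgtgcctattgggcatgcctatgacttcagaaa
Gpr3: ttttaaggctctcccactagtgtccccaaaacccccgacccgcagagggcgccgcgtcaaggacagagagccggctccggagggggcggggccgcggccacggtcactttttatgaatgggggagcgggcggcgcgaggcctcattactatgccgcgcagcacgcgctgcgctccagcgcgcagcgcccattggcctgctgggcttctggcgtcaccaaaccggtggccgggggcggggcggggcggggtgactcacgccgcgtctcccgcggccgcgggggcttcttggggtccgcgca
Nppc: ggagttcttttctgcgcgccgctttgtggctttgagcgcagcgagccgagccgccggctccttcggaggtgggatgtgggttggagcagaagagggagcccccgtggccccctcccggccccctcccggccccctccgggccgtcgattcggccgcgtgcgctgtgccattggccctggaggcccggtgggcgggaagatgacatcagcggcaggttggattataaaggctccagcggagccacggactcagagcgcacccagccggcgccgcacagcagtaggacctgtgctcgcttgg

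CANNTG occurred 3 times in the Wee2 window, 2 times in that of Btg4 and 1 time in that of Aurkc, and not at all in the windows of Gpr3 and Nppc. The motif is frequent, since 72.3% of 32851 promoter windows of the same length held it. The homeobox letters TAATTG or TAATTA, held by 12.4% of all windows, were found in the Wee2 window only among the 8 genes, and TATAAA, held by 13.6%, in those of Nppc and Cpeb1. Among the 5 printed windows, the 3 with CANNTG were also the poorer in G and C. Most of the windows not printed went the other way. CANNTG was also found in the Npr2 window with 64% G and C and in that of Cpeb1 with 72.7%. Cnot6l windows with 75.7% and 67% held it too, but the Cnot6l window with 82.7% did not. Btg4 had 39% G and C with 1 CG dinucleotide, and Wee2 and Aurkc had 46.0% with 5 and 6 CG. Gpr3 had 72.0% with 38 CG and Nppc 69.3% with 29 CG, where the median of all windows was 52.7% with 7 CG. The start sites used for Btg4 and Wee2 lie inside the spans given above, so other starts of these genes were not examined.

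The first comparison, Aged against Control, asks how the arrest and maturation genes differ between ovaries of old and young mice. At an adjusted p under 0.05 with a fold change of at least 1.5 in edgeR, 3 of the 10 genes fell (Gpr3, Nppc and Btg4) and none rose, where 6.06% of all genes tested fell and 11.1% were called in either direction. In 6 genes (Gpr3, Nppc, Btg4, Wee2, Mos and Aurkc) all Aged ovaries lay below all Control ovaries, as in 15.6% of all genes tested. At an unadjusted p under 0.05 with the same fold, 7 of 10 were lower, where 9.44% of all genes were. The 3 that passed neither rule were Pde3a, Cpeb1 and Cnot6l. The median log2 fold change of the 10 genes was -1.36, and that of all genes tested was 0.00. A smaller number of oocytes in an ovary and less of an RNA in each oocyte cannot be told apart in whole-ovary RNA. The oocyte markers moved with these genes, with 19 of 24 lower at an adjusted p and a median log2 fold change of -2.50.

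Without Aged replicate 34, 6 of the 10 genes fell at an adjusted p, with Npr2, Mos and Wee2 added to the 3 above, where 16.1% of all genes tested were called and 7.54% fell. Leaving out any other ovary left between 1 and 3 genes called, where 5.74% to 9.77% of all genes tested were called. The lowest count, Gpr3 alone, came without Aged replicate 31. Without Aged replicate 33, Aurkc was called (log2 fold change -4.54, adjusted p = 0.0144), where 4.95% of all genes tested fell. Aged replicates 31 and 34 held 3 and 0 counts of Aurkc, so this fold change lies at the floor.

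On the somatic side of the pathway, Nppc encodes C-type natriuretic peptide, which mural granulosa cells secrete. It measured 22.8, 36.3, 26.2 and 27.2 CPM in Control, 14.4, 14.1 and 20.3 CPM in Aged, and 18.3, 10.9 and 16.7 CPM in Aged+CF. Each of the 6 older ovaries was below each Control ovary, and Aged and Aged+CF overlapped. Nppc fell in Aged by 0.79 on the log2 scale (SE 0.23, adjusted p = 0.0441, edgeR). This call is fragile. The adjusted p was 0.108, 0.0722 or 0.0873 without Control replicate 32, 33 or 34, 0.127 or 0.119 without Aged replicate 31 or 33, and 0.0600 or 0.0685 without Aged+CF replicate 30 or 34. It was 0.0213 without Aged replicate 34, at a log2 fold change of -0.94.

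Npr2, the guanylyl cyclase that binds this peptide and makes cyclic GMP in cumulus and granulosa cells, measured 130, 183, 166 and 149 CPM in Control, 88.8, 86.3 and 135 CPM in Aged, and 130, 90.6 and 118 CPM in Aged+CF. Aged replicate 34, at 135 CPM, was the one Aged ovary inside the Control range. With it, Npr2 had a log2 fold change of -0.60 (SE 0.19, unadjusted p = 0.0112, adjusted p = 0.0620). Without it the 2 Aged ovaries left lay wholly below Control, a split whose share of all genes was not counted. Npr2 then fell by 0.80 (SE 0.17, adjusted p = 0.0109). The summed granulosa markers ranged from 5408 to 8558 CPM in Control and from 3717 to 4721 CPM in Aged, with 6 of 12 lower at an unadjusted p and 1 at an adjusted p. Whether they account for Nppc and Npr2 was not tested.

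Gpr3, the Gs-coupled receptor that keeps oocyte cyclic AMP high without a ligand, measured 1.46, 2.68, 1.57 and 1.75 CPM in Control, 0.298, 0.494 and 0.276 CPM in Aged, and 1.03, 0.574 and 0.937 CPM in Aged+CF. The 3 groups did not overlap, with Control highest and Aged lowest. Gpr3 fell in Aged by 2.38 on the log2 scale (SE 0.38, 5.22-fold, adjusted p = 0.00677). The log2 fold change was -2.19 without Aged replicate 34 (adjusted p = 0.00948). It passed the threshold whichever ovary was left out, but it entered the fit only through its Control level, which kept it past the filter on low counts. Aged replicate 34 did not stand apart in this gene, with 5 counts against 5 and 7 in the other Aged ovaries.

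Pde3a, the phosphodiesterase that hydrolyses oocyte cyclic AMP when cyclic GMP falls, measured 37.7, 29.5, 36.4 and 37.6 CPM in Control, 34.7, 22.6 and 44.7 CPM in Aged, and 36.9, 28.3 and 43.1 CPM in Aged+CF. The groups overlapped throughout. Its log2 fold change in Aged was -0.05 (SE 0.22, adjusted p = 0.903), and -0.26 (SE 0.21, adjusted p = 0.402) without Aged replicate 34, the ovary with the highest value. Pde3a is also expressed in muscle and vessel cells, and the summed smooth muscle markers of Aged replicate 34 were 2874 CPM against 1199 and 1505 in the other Aged ovaries. Whether these cells account for the Pde3a level of that ovary was not tested.

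Wee2, the oocyte kinase that phosphorylates and restrains Cdk1, measured 8.29, 8.35, 6.03 and 8.53 CPM in Control, 2.39, 2.54 and 0.0551 CPM in Aged, and 2.52, 1.90 and 4.08 CPM in Aged+CF. All older ovaries were below all Control ovaries, and Aged replicate 34 held a single count. The log2 fold change in Aged was -2.25 (SE 0.72, unadjusted p = 0.0106, adjusted p = 0.0600). The change was smaller and passed the threshold without Aged replicate 34, at -1.62 (SE 0.31, adjusted p = 0.00797).

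Mos, the kinase that switches on the MAPK pathway in the maturing oocyte and maintains its second arrest, measured 8.05, 10.7, 5.78 and 9.65 CPM in Control, 2.27, 4.52 and 0 CPM in Aged, and 4.59, 3.39 and 4.78 CPM in Aged+CF. The 0 in Aged replicate 34 allows up to 3 counts, or 0.165 CPM, as counting error alone would have it. The log2 fold change in Aged was -1.94 (SE 0.82, unadjusted p = 0.0404, adjusted p = 0.138), and Mos fell by 1.3 (SE 0.34, adjusted p = 0.0245) without Aged replicate 34. Aurkc, the meiotic Aurora kinase of the chromosomal passenger complex, measured 2.22, 2.74, 1.32 and 2.6 CPM in Control, 0.179, 1.06 and 0 CPM in Aged, and 1.09, 0.632 and 1.36 CPM in Aged+CF. Aged ovaries lay below Control in both genes. Aurkc had a log2 fold change of -2.49 (SE 0.81, unadjusted p = 0.0122, adjusted p = 0.0651) and of -1.83 (SE 0.61, adjusted p = 0.0606) without Aged replicate 34.

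Among the regulators of stored mRNA, Btg4, the adaptor that brings the CCR4-NOT deadenylase to maternal transcripts, measured 7.29, 9.85, 7.15 and 9.60 CPM in Control, 1.37, 3.03 and 0.386 CPM in Aged, and 3.10, 2.93 and 5.16 CPM in Aged+CF. Every older ovary was below every Control ovary. Btg4 fell in Aged by 2.43 on the log2 scale (SE 0.53, 5.38-fold, adjusted p = 0.0170), and had a log2 fold change of -1.91 when Aged replicate 34 was left out (SE 0.37, adjusted p = 0.00798). Of the 10 ovaries left out in turn, only the removal of Aged replicate 31 ended the call (adjusted p = 0.0546). Cpeb1, which binds the cytoplasmic polyadenylation element of stored mRNAs, measured 18.2 to 28.8 CPM in Control, 19.8 to 22.3 in Aged and 20.2 to 26.4 in Aged+CF. Cnot6l, a catalytic deadenylase of CCR4-NOT, measured 74.2 to 107 CPM in Control, 66.6 to 96.9 in Aged and 79.6 to 110 in Aged+CF. Neither gene separated the groups, with log2 fold changes in Aged of -0.11 for Cpeb1 (SE 0.16, adjusted p = 0.690) and -0.29 for Cnot6l (SE 0.18, adjusted p = 0.306). These were -0.08 and -0.19 without Aged replicate 34.

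**Figure D2:**
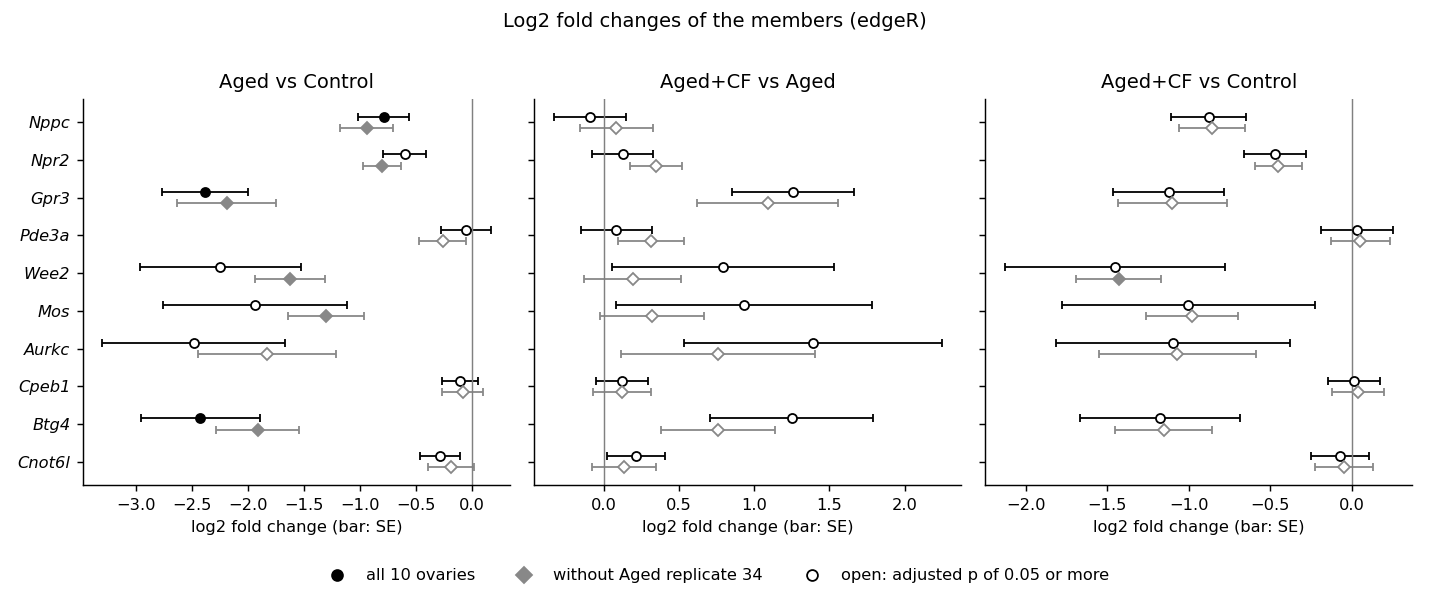
Log2 fold change of each gene on the x axis with a bar of 1 SE, in 3 panels for the 3 comparisons, fitted with all 10 ovaries (circles) and without Aged replicate 34 (diamonds), filled where the adjusted p was under 0.05 at a fold of at least 1.5. In Aged against Control all 10 estimates are below 0, from -2.49 for Aurkc to -0.05 for Pde3a, and in Aged+CF against Aged no point is filled.

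The second comparison, Aged+CF against Aged, asks how the same genes stood in old ovaries after CEFFE. It shares the Aged ovaries with the first comparison, so an error in the Aged level enters both with opposite sign, and the values are given side by side without a test of their relation. In edgeR, 0 of the 10 genes passed an adjusted p under 0.05, where 1 of 18956 genes did (0.00528%). DESeq2 called 0 of the 8 genes to which it gave an adjusted p (none for Gpr3 and Aurkc) and 442 of all genes, and limma-voom called 0 of the 10 and 1 of all genes. edgeR called 0 of the 10 without Aged replicate 34, where 2.87% of all genes tested were called. At an unadjusted p under 0.05 with a fold of at least 1.5, 2 genes were higher (Gpr3 and Btg4), where 3.91% of all genes tested were higher and 7.96% were called in either direction. DESeq2 counted 2 of the 10 and 1596 of all genes (8.42%), and limma-voom 4 of the 10 and 1406 of all genes (7.42%). The median log2 difference of the 10 genes was 0.50 and that of all genes tested -0.02. Oocyte markers were again on the same side, with all 24 estimates above 0, 8 at an unadjusted p and a median log2 difference of 1.14. Without Aged replicate 34, 22 of the 24 were above 0, 12 at an unadjusted p, with a median of 0.635. The median of the 10 genes was then 0.317.

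Gpr3 passed the filter on low counts through its Control level. In a fit of the Aged and Aged+CF ovaries alone it did not pass, and 0 of the 9 genes tested there were called at an unadjusted p. With all ovaries in the fit, all 3 Aged+CF ovaries, at 0.574 to 1.03 CPM, lay above all 3 Aged ovaries, at 0.276 to 0.494 CPM, as 10.2% of all genes tested did. The log2 difference was 1.26 (SE 0.41, 2.39-fold, unadjusted p = 0.0115, adjusted p = 0.205), and 1.09 (unadjusted p = 0.0436, adjusted p = 0.194) without Aged replicate 34. These levels correspond to 10 to 20 counts in Aged+CF and 5 to 7 in Aged.

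Btg4 had 2.93 to 5.16 CPM in Aged+CF and 0.386 to 3.03 CPM in Aged, and the ranges overlapped through Aged replicate 33. Its log2 difference was 1.25 (SE 0.54, unadjusted p = 0.0448, adjusted p = 0.296) and dropped to 0.76 (unadjusted p = 0.0729) without Aged replicate 34. In edgeR the unadjusted p was also above the threshold without Aged replicate 31 (0.116), without each of the Control ovaries in turn (0.0559 to 0.0593), and without Aged+CF replicate 30 or 34 (0.0580 and 0.159).

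The other oocyte kinases had positive differences that did not pass either rule, at log2 1.39 for Aurkc (SE 0.86, adjusted p = 0.443), 0.93 for Mos (SE 0.85, adjusted p = 0.609) and 0.79 for Wee2 (SE 0.74, adjusted p = 0.617). They were 0.76, 0.32 and 0.19 without Aged replicate 34. Nppc and Npr2 stayed close to their Aged levels, with log2 differences of -0.09 (SE 0.24) and 0.13 (SE 0.20). Without Aged replicate 34 they were 0.08 (SE 0.24) and 0.35 (SE 0.17, unadjusted p = 0.0714). The Npr2 ranges then no longer overlapped, with only 2 Aged ovaries left, and the share of all genes that did so was not counted. Pde3a, Cpeb1 and Cnot6l had differences of 0.08, 0.12 and 0.22 with SE of 0.24, 0.17 and 0.19, and of 0.31, 0.12 and 0.14 without that ovary.

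Set against Control, the Aged+CF ovaries answer how far the old treated ovary stood from the young one. At an adjusted p, 0 of the 10 genes were called in edgeR, where 34 of all genes tested were (0.179%). DESeq2 called 1 of the 10 (Nppc) and 2.79% of all genes, and limma-voom 0 of the 10 and 0.111% of all genes. At an unadjusted p with a fold of at least 1.5, 3 genes were lower (Gpr3, Nppc and Btg4), where 4.36% of all genes were lower, and Npr2 had an unadjusted p of 0.0335 at a smaller fold. In 5 genes, namely Gpr3, Nppc, Btg4, Wee2 and Mos, all 3 Aged+CF ovaries lay below all 4 Control ovaries, as in 12.2% of all genes tested. The log2 differences were -1.45 for Wee2 (SE 0.68), -1.18 for Btg4 (SE 0.49), -1.12 for Gpr3 (SE 0.34), -1.10 for Aurkc (SE 0.72), -1.0 for Mos (SE 0.78) and -0.88 for Nppc (SE 0.23). Without Aged replicate 34, which belongs to neither of these groups but enters the shared estimate of spread, Wee2 was called (adjusted p = 0.0322). Of all genes tested, 1.8% were called in that fit.

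Since the oocyte markers moved with the oocyte genes, each gene was also expressed as a log2 ratio of its CPM to the summed CPM of the 24 oocyte markers, with 0.5 CPM added to each. In 5 of the 10 genes the Aged and Control ranges of this ratio overlapped, and in 5 Aged lay above Control. Among all genes tested, 95.2% lay above Control without overlap on this ratio, with or without Aged replicate 34, since its denominator averaged 820 CPM in Control and 164 CPM in Aged, and nothing particular to the 5 genes is read from it. Btg4 was the tightest in Control, at -6.49, -6.49, -6.57 and -6.52 log2. The Aged ovaries had -6.98, -5.91 and -5.59 log2 and the Aged+CF ovaries -6.53, -6.34 and -6.23 log2. Aged lay on both sides of Control. The Aged minus Control difference was 0.35 (exact permutation p = 0.286, two-sided) and 0.07 (exact permutation p = 0.667) without Aged replicate 34. Mos, Wee2, Aurkc and Gpr3 had differences of 0.44, 0.37, 0.94 and 1.21 log2 with overlapping ranges, and of 0.61, 0.38, 0.49 and 0.47 without that ovary, in which the added 0.5 CPM is larger than their own CPM. With 0.1 CPM added instead, the differences of Mos, Wee2, Btg4 and Aurkc were -0.37, -0.30, -0.04 and -0.16 log2.

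Relative to the same markers, Npr2, Nppc, Pde3a, Cpeb1 and Cnot6l were higher in every Aged ovary than in every Control ovary. The differences were 2.04, 1.88, 2.56, 2.56 and 2.36 log2, each at an exact permutation p of 0.0571, the smallest that 3 against 4 ovaries can give. They were 1.03, 0.92, 1.54, 1.75 and 1.62 log2 without Aged replicate 34, still without overlap. In Aged+CF against Control the same 5 genes and also Mos and Aurkc lay wholly above, at differences of 0.35 to 1.28 log2 for these 7 genes, as 88.5% of all genes tested did. Between Aged+CF and Aged, Wee2 (-0.47 log2) and Nppc (-1.5 log2, or -0.53 without Aged replicate 34) were lower without overlap, as 59.9% of all genes tested were, each at an exact permutation p of 0.1, the smallest that 3 against 3 can give. With 0.1 CPM added, the Wee2 difference was 0.08 log2. Then 1 of the 10 genes did not overlap, and the share of all genes was not counted. In all, 30 such values were compared, and no design here can bring such a p under 0.05.

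**Figure D3:**
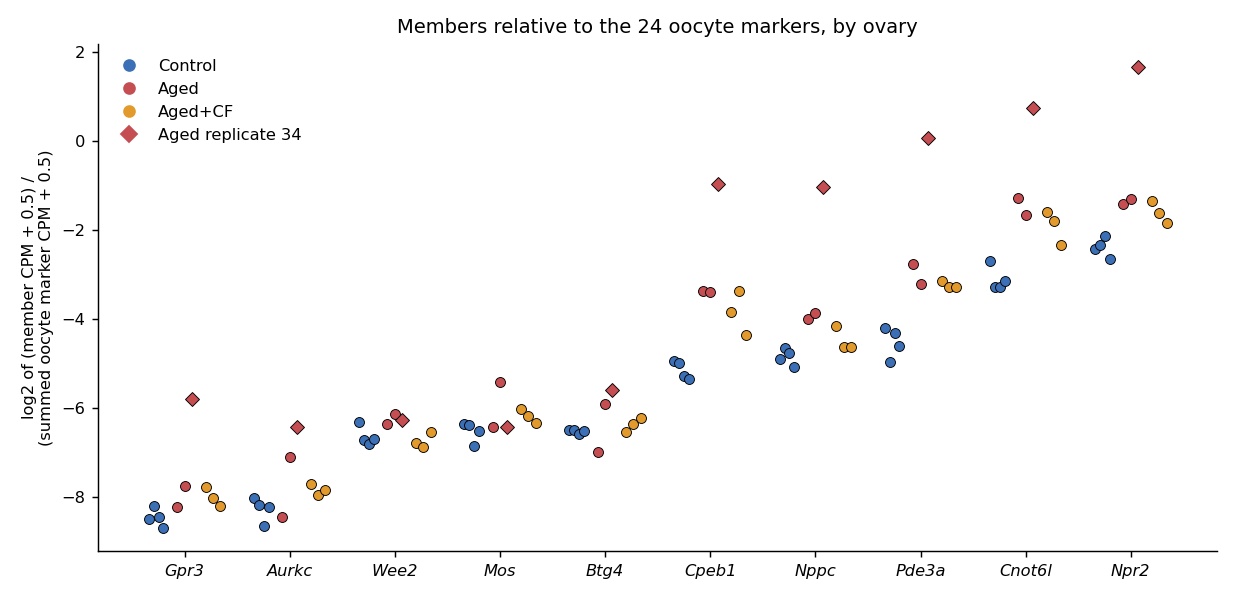
Log2 ratio of each gene to the summed oocyte markers on the y axis, with 1 point for each ovary. In Btg4, Wee2, Mos, Aurkc and Gpr3 the Aged and Control points overlap, while in Npr2, Nppc, Pde3a, Cpeb1 and Cnot6l all Aged points lie above all Control points and Aged replicate 34 (diamond) is far above the rest.

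When the oocyte markers entered the edgeR fit as a score, the mean of their standardized log2 CPM, the Aged against Control differences of Mos, Wee2 and Aurkc turned positive, at 2.29 (adjusted p = 0.156), 1.41 (0.400) and 1.20 (0.605) log2. Btg4 dropped to -0.19 (adjusted p = 0.870) and Gpr3 to -1.64 (0.207), while Nppc and Npr2 had larger negative values of -1.15 (0.132) and -1.16 (0.0687). None of the 10 passed an adjusted p in that fit, where 511 of all genes did (2.7%), and 3 of the 10 passed an unadjusted p with a fold of at least 1.5, where 22.3% of all genes did. The score was -2.25 in Aged replicate 34 and between -0.50 and 0.99 in the other 9 ovaries, and it separated Aged from Control, so group and score cannot be told apart fully in these ovaries.

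The members' closest relatives in the genome gave a further view, since most of them are active in many cell types. Compared per length, Wee2, Btg4, Aurkc and Cnot6l were below each of their relatives that passed the filter on low counts. Cnot6l had 5.20 FPKM against 24.6 for Cnot6. Wee2 had 1.24 FPKM against 9.03 for Wee1, the kinase of dividing somatic cells. Btg4 had 1.40 FPKM against 33.1 for Btg1, 19.7 for Btg2, 4.87 for Btg3, 54.6 for Tob1 and 7.83 for Tob2, and Aurkc 0.542 against 4.52 for Aurka and 2.83 for Aurkb. Gpr6 and Gpr12, the receptors nearest to Gpr3, had at most 1 count in any ovary, and Nppa and Nppb, the other natriuretic peptides, at most 5. Pde3a, at 2.61 FPKM, was close to Pde3b at 2.13. Cpeb1, at 3.12, lay beside Cpeb2 at 3.16, above Cpeb3 at 0.873 and below Cpeb4 at 4.77.

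Of the 15 relatives tested, 1 fell and 1 rose in Aged at an adjusted p (2 of 15, beside 11.1% of all genes). Aurka, the spindle pole kinase of all dividing cells, fell by 1.44 on the log2 scale (adjusted p = 0.0404, or 0.0309 without Aged replicate 34 at -1.01), and Aurkb, the mitotic kinase of the passenger complex, had -1.37 (adjusted p = 0.0577, or 0.0386 without Aged replicate 34 at -0.92). Cpeb3 rose by 0.73 (adjusted p = 0.0387, and 0.85 with adjusted p = 0.0289 without that ovary), whereas Cpeb1, Cpeb2 and Cpeb4 had -0.11, -0.13 and 0.56. Wee1 had -0.39 (adjusted p = 0.0813), a smaller estimate than the -2.25 of Wee2. Npr1, the receptor of the other natriuretic peptides, had 0.44 (adjusted p = 0.105) where Npr2 had -0.60, and without Aged replicate 34 the estimates were 0.22 and -0.80. Cnot6 had -0.40 beside -0.29 for Cnot6l, Pde3b 0.43 beside -0.05 for Pde3a, and Npr3, the clearance receptor, -0.07. Btg1, Btg2, Btg3, Tob1 and Tob2 lay between -0.81 and 0.57, where Btg4 had -2.43. Without Aged replicate 34, Btg3 rose by 0.86 (adjusted p = 0.00801). In Aged+CF against Aged 0 of the 15 were called in edgeR at an adjusted p or at an unadjusted p under 0.05 with the required fold. In the same comparison fitted without Aged replicate 34, Npr3 was higher in Aged+CF (1.03, unadjusted p = 0.0418) and Btg3 lower (-0.72, unadjusted p = 0.00248), and neither passed an adjusted p.

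**Figure D4:**
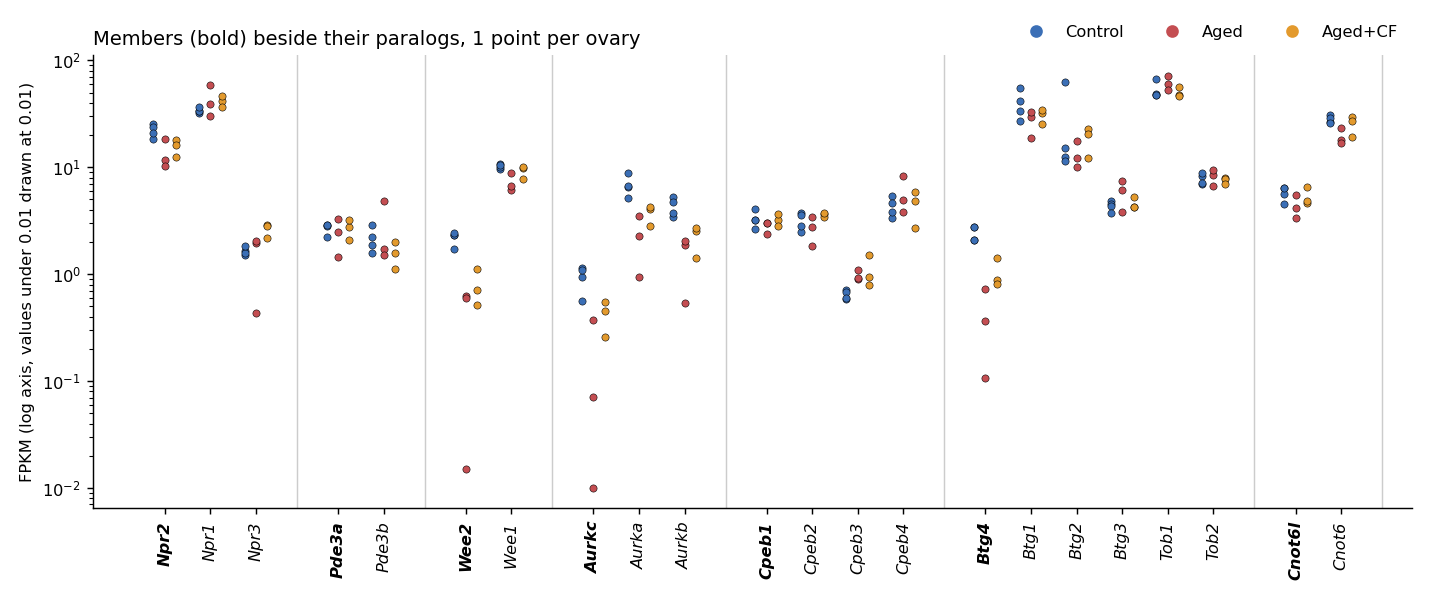
FPKM on a log axis of 7 members (bold) beside their relatives with a mean of at least 1 CPM, with 1 point for each ovary and values under 0.01 drawn at 0.01. Wee2, Aurkc, Btg4 and Cnot6l lie below their relatives in each of the 10 ovaries. The Aged points of Wee2, Aurkc and Btg4 lie below all Control points, while those of Cpeb1, Pde3a and Cnot6l overlap between the groups.

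The genes that act around the members were read as 3 lists. Of 24 genes that set cyclic nucleotide levels or transmit the gonadotropin signal, 2 rose and 1 fell in Aged at an adjusted p, with a median log2 fold change of 0.14. Of all genes tested, 11.1% were called in either direction. Lhcgr, the luteinizing hormone receptor, rose by 1.80 (SE 0.36, adjusted p = 0.0127), from 234 to 785 CPM in Control to 1789 to 1967 CPM in Aged. In Aged+CF it was 304 to 536 CPM, a log2 difference from Aged of -2.07 (SE 0.40, unadjusted p = 0.000400, adjusted p = 0.15), which passed without Aged replicate 34 (-2.11, adjusted p = 0.0410). Prkaca, the catalytic subunit of protein kinase A, rose by 0.68 in Aged (adjusted p = 0.0180), and its regulatory subunit Prkar2b fell by 0.77 (adjusted p = 0.0295). The summed theca and luteal markers, cells in which Lhcgr is also expressed, ranged from 6441 to 11357 CPM in Control, 14412 to 35092 in Aged and 13992 to 21813 in Aged+CF, and their part in the Lhcgr difference was not tested. With Aged replicate 34 left out, 2 of the 24 again rose and 1 fell (median 0.15), where 16.1% of all genes tested were called. Lhcgr, Prkaca and Prkar2b then had log2 fold changes of 1.86, 0.88 and -0.79, each at an adjusted p under 0.05.

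Of 30 genes of the switch into M phase, 16 fell and 1 rose in Aged at an adjusted p, with a median log2 fold change of -1.19. Of all genes tested, 6.06% fell and 5% rose. Mastl, the kinase that protects Cdk1 substrates from dephosphorylation, fell by 1.52 (SE 0.21, adjusted p = 0.00497). Cdc25a, a phosphatase that activates Cdk1, fell by 0.76 (adjusted p = 0.00511), the checkpoint kinase Bub1b fell by 1.75 (adjusted p = 0.00836), and Incenp, the scaffold that binds Aurkc and Aurkb, fell by 1.15 (adjusted p = 0.00843). Mapk3, which acts downstream of Mos, rose by 0.79 (adjusted p = 0.0132). With Aged replicate 34 left out, 19 fell and 2 rose (median -0.88), where 7.54% of all genes tested fell and 8.55% rose. Mastl, Cdc25a, Bub1b, Incenp and Mapk3 then had -1.31, -0.71, -1.38, -0.89 and 1.01, each at an adjusted p under 0.05. In Aged+CF against Aged none of the 30 passed an adjusted p in edgeR. Of the unadjusted calls, 4 were higher and 2 lower, among them Mastl (0.90, adjusted p = 0.161, or 0.72 and 0.0766 without that ovary) and Mapk3 (-0.60, adjusted p = 0.178). Of all genes tested, 3.91% were higher and 4.05% lower by the same rule. Without Aged replicate 34, 2 of the 30 were lower at an adjusted p, 1 of them Mapk3 (-0.81, adjusted p = 0.0179), where 2.16% of all genes tested were lower. Genes of this list such as Cdc25a, Bub1b and Incenp act in any dividing cell, granulosa cells included.

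Of 30 genes of maternal mRNA translation and decay, 7 fell and none rose in Aged at an adjusted p, with a median log2 fold change of -0.29. Of all genes tested, 6.06% fell and 5% rose. Ybx2, the RNA-binding protein that packages oocyte mRNA, fell by 2.49 (SE 0.35, adjusted p = 0.00497), and Pabpc1l, the poly(A)-binding protein of oocytes, fell by 2.14 (SE 0.32, adjusted p = 0.00550). Tut4, which adds uridines to short poly(A) tails, fell by 1.12 (adjusted p = 0.00425), from 165 to 185 CPM in Control to 68.8 to 101 CPM in Aged, and Lsm14b fell by 0.66 (adjusted p = 0.00361). In Aged+CF, at 121 to 148 CPM, Tut4 was 0.76 log2 above Aged (unadjusted p = 0.000521, adjusted p = 0.15) without overlap of the groups, and Ybx2 was 1.15 above (unadjusted p = 0.00886, adjusted p = 0.194). In edgeR 4 genes of the list were higher than Aged at an unadjusted p, where 3.91% of all genes tested were, and 0 at an adjusted p. With Aged replicate 34 left out, 9 of the list fell and none rose in Aged (median -0.25), where 7.54% of all genes tested fell. Ybx2, Pabpc1l, Tut4 and Lsm14b were then at -2.11, -1.78, -0.99 and -0.64, each at an adjusted p under 0.05. In Aged+CF against Aged, Tut4 and Ybx2 were then 0.65 (adjusted p = 0.0578) and 0.79 (adjusted p = 0.109).

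**Figure D5:**
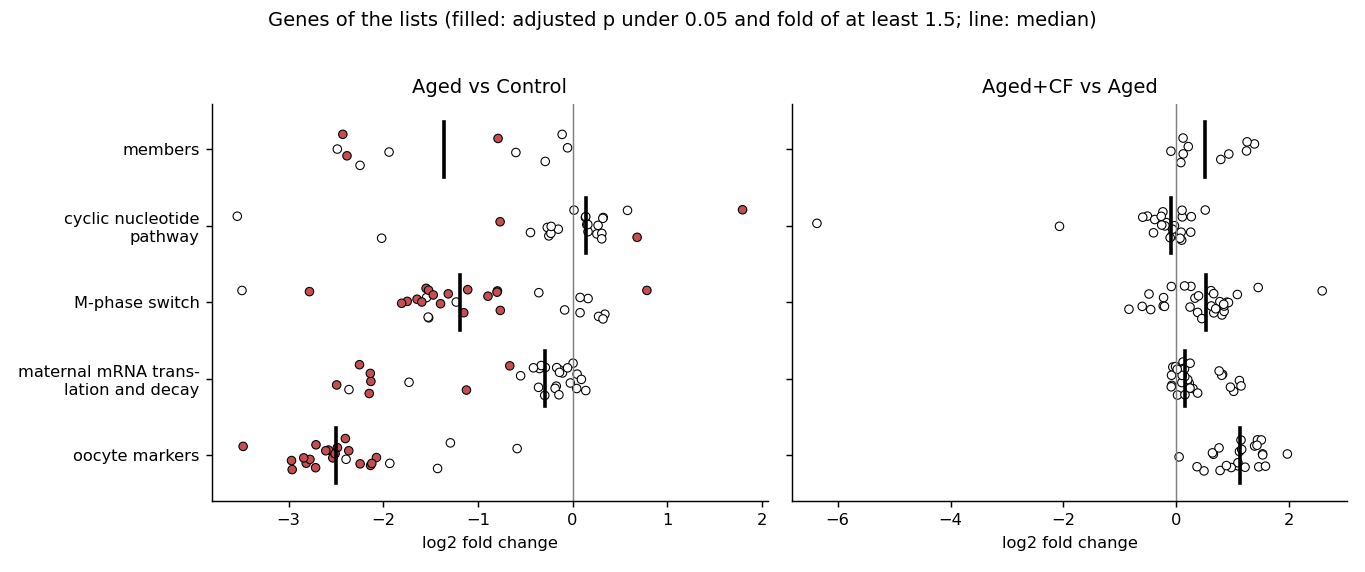
Log2 fold change of every gene of the members, the 3 lists and the oocyte markers, 1 point a gene, with a line at the median of each list, in Aged against Control and in Aged+CF against Aged. In the first panel the medians run from 0.14 for the cyclic nucleotide list to -2.50 for the oocyte markers with the members at -1.36, and in the second panel no point is filled.

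Across the 10 ovaries the members fell into patterns of their own, measured as the root mean square difference between genes of log2 CPM centred on each gene's mean. The nearest pair of members was Npr2 and Nppc, the receptor and its ligand, at 0.198 log2, though each had nearer genes outside the members. Cpeb1 and Cnot6l were next at 0.242 and Btg4 and Aurkc at 0.316, while Wee2 lay 0.439 from Mos and 0.553 from Btg4. Among 16714 genes with a mean of at least 1 CPM, the nearest to Btg4 was Fbxo43, the inhibitor of the anaphase-promoting complex that acts in oocytes, at 0.134 log2, followed by Fbxw15 and Gulo at 0.176 each. Fbxo43 had a log2 fold change of -2.78 in Aged (adjusted p = 0.0293). It was picked for its likeness to Btg4 over these same ovaries, so this is no separate result. Nearest to Nppc were Amigo2 (0.131), Wipf3 (0.183) and Chrdl1 (0.185), to Npr2 Xrcc5 (0.108), Ttll3 (0.114) and Sntg2 (0.120), and to Gpr3 Ifit1bl2 (0.233), 4933431K23Rik (0.242) and Bex2 (0.248). A gene with a flat level has many near neighbours, and the spread of the genes around their own means was 1.28 log2 for Btg4, 0.914 for Gpr3, 0.493 for Nppc and 0.359 for Npr2, so the distance of Btg4 to Fbxo43 is the smallest share of its own spread among these 4.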

How the data were processed

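Total RNA of 10 whole mouse ovaries was sequenced, 1 library an ovary. Ovaries were grouped by their labels as Control (n = 4), Aged (n = 3) and Aged+CF (n = 3). Per ovary, the authors deposited counts of reads for every gene, not normalized, together with FPKM values, which equal the count divided by gene length and library total (the implied length of a gene differed between ovaries by at most 0.087%). The submitters' processing notes name TopHat, Cufflinks 2.1.1 and GRCm38.p4, without saying which made the counts. The counting tool, annotation and strand setting are not given in the sources used here. Library totals ranged from 15761789 to 21318254 counts. Their precision is limited by counting for Gpr3 and Aurkc, and limits from a count of 0 (3 counts) cover counting error only.

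Counts were tested in edgeR 4.0 (R 4.3) with TMM scaling, the default low-count filter (18956 genes kept) and the quasi-likelihood F test with 1 mean a group over all 10 ovaries, and p-values were Benjamini-Hochberg adjusted over all genes tested. Calls needed a fold of at least 1.5 with an adjusted p under 0.05, the study's stated rule, or with an unadjusted p under 0.05, as its series text has it. On simulated counts for 18635 genes with 200 changed, the fit recovered 81.5% for Aged against Control and 78% for Aged+CF against Aged, and falsely called 10 and 9 genes. Recovery of differences as small as the median of the 10 genes in Aged+CF against Aged was not tested. The ratio of a gene to the oocyte markers used log2 of CPM plus 0.5 and a two-sided exact permutation test over ovaries in scipy 1.17. DESeq2 1.42, limma-voom (limma 3.58), DESeq2 size factors, no filter, only the compared groups, a replicate block, an oocyte score as covariate and leaving out each ovary were the alternatives. Tables were handled in pandas 2.3 and numpy 2.4 under Python 3.11, and figures drawn in matplotlib 3.10. Gene positions came from GENCODE M21, which held 55141 of the 55487 gene IDs, and promoters from RefSeq.

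The members and lists were chosen with earlier results of these data known. Named genes were all 10 members, their relatives with a mean of at least 1 CPM, in each of the 3 pathway lists the 4 genes called with the smallest p in Aged against Control and the 2 with the smallest p in Aged+CF against Aged among unadjusted calls, and the 3 genes nearest in pattern to Nppc, Npr2, Gpr3 and Btg4. Oocyte, granulosa, theca and luteal, smooth muscle, endothelial, immune and oviduct markers served as cell type lists. Same-numbered ovaries come from different animals and their deviations from the group means correlated between -0.185 and 0.153, so the numbers were not taken as pairs.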

Additional observations from a re-analysis of the deposited data

Results flagged for a closer look

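In 2 of 10 checks, 1 for each gene in the 4 Control ovaries, a single ovary lay far from the other Control ovaries, measured as its gap to the nearest of them over the whole range of the group. For Pde3a, Control replicate 32 at 29.5 CPM lay below the others at 36.4 to 37.7 CPM, with a gap of 0.837 of the range. For Wee2, Control replicate 33 at 6.03 CPM lay below the others at 8.29 to 8.53 CPM, with a gap of 0.901 of the range. Chance flags about 1 in 20 such groups. Groups of 3 ovaries were not checked, so Aged replicate 34 was not subject to this check.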

How the results depend on the processing

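Of 509 log2 fold changes of the 10 genes under the alternatives, 450 kept their direction and their side of the threshold, 31 changed sign, 12 passed the threshold anew and 16 lost it. Of 390 ratios to the oocyte markers, 377 kept their direction and 13 changed sign. The causes were not tested. Leaving out each ovary in turn gave, in Aged against Control, 1 to 6 of the 10 genes at an adjusted p, with 1081 to 3112 genes in all. At an unadjusted p it gave 4 to 7 of the 10, with 3041 to 4282 genes in all. For Aged+CF against Aged, leaving out each ovary gave 1 to 3 of the 10 at an unadjusted p, with 1 to 556 genes in all at an adjusted and 1170 to 2360 at an unadjusted p. In Aged+CF against Control it gave 0 to 1 of the 10 at an adjusted and 2 to 5 at an unadjusted p, with 7 to 348 and 859 to 2000 genes in all. The log2 ranges that crossed 0 were -0.21 to 0.018 (Cpeb1) and -0.26 to 0.19 (Pde3a) in Aged against Control, -0.25 to 0.10 (Nppc) and -0.14 to 0.31 (Pde3a) in Aged+CF against Aged, and -0.21 to 0.014 (Cnot6l), -0.093 to 0.14 (Cpeb1) and -0.091 to 0.18 (Pde3a) in Aged+CF against Control. For the ratio, 5 to 9 genes did not overlap in Aged against Control and 2 to 6 in Aged+CF against Aged. With all ovaries, 95.2% of all genes tested lay above Control in Aged and 59.9% below Aged in Aged+CF without overlap. Nothing particular to the 10 genes is read from these counts. In Aged+CF against Aged, Btg4 ran from -0.61 to 0.082 and Mos from -0.26 to 0.25. Wee2 ran from -0.19 to 0.0062 in Aged+CF against Control.

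In Aged against Control, DESeq2 and limma-voom each called 5 of the 10 genes at an adjusted p, with 2761 (14.6%) and 2038 (10.8%) of all genes. The genes called in all in Aged+CF against Aged were 442 with DESeq2, 2 with no filter and 2 with only the compared groups, and of the 10 limma-voom called 4 at an unadjusted p and the fit of only the compared groups 0, in which Gpr3 did not pass the filter. In Aged+CF against Control, 528 genes were called by DESeq2 (1 of the 10), 21 by limma-voom and 487 with only the compared groups (2 of the 10). At an unadjusted p the fit of only the compared groups called 6 of the 10 there, and 1934 of all genes.

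With the replicate number as a block (a replicate block), which pairs different animals, 80 genes and 0 of the 10 were called in Aged against Control. Between Aged+CF and Aged 0 genes were called at an adjusted p and 888 at an unadjusted p, with 0 of the 10, and in Aged+CF against Control 9 genes. Under the block Cpeb1 was 0.022 in Aged against Control, Npr2 and Cpeb1 were -0.17 and -0.14 in Aged+CF against Aged, and Pde3a and Cpeb1 were -0.047 and -0.12 in Aged+CF against Control.

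With the oocyte score as covariate, 511 genes, 0 of the 10 at an adjusted and 3 at an unadjusted p (4235 of all genes) were called in Aged against Control, where Mos, Aurkc and Wee2 were 2.29, 1.20 and 1.41. Between Aged+CF and Aged 9 genes were called at an adjusted and 2537 at an unadjusted p, with 0 of the 10, and Nppc, Mos, Aurkc and Wee2 were 0.11, -0.74, -0.20 and -0.76. In Aged+CF against Control Pde3a, Btg4, Mos, Aurkc, Cnot6l and Wee2 were -0.21, 0.0018, 1.55, 1.01, 0.048 and 0.65. With 0.1 CPM in the ratio, Mos, Wee2, Btg4 and Aurkc were -0.37, -0.30, -0.037 and -0.16 in Aged against Control and 0.66, 0.076, 0.10 and 0.37 in Aged+CF against Aged, where 1 gene did not overlap. With the mean of the markers' log2 CPM or early follicle markers alone, Mos was 0.042 or 0.045 and again 1 gene did not overlap there, and 4 did not overlap in Aged+CF against Control with the early markers. How many of all genes did not overlap at these ratio settings was not counted.

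Depth limits Gpr3, at 5 to 7 counts in Aged, and Aurkc, Mos and Wee2 in Aged replicate 34, at 0, 0 and 1 count.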
